A study of Danio rerio with 6 samples.

Results

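The genes described here encode the enzymes that turn glucose into pyruvate and lactate, with the membrane carriers that bring glucose in and move lactate across the membrane. They were chosen by name, from a list of 37 zebrafish symbols, and no measured value enters the rule. The list itself was set with earlier results of these data known. An Ensembl gene ID counted as a match where its symbol was on the list, or was on it once the last a or b of the listed symbol was dropped. Of the 37 symbols, 36 had at least 1 ID and pgk1, a phosphoglycerate kinase gene, had none. An ID with the symbol PGK2, which is not on the list, is given further on. The match gave 37 IDs, out of 32105 genes in the table, which fell into 12 families of 2 to 6 gene copies. All 37 passed the filter on low values, which asked for at least 1 FPKM in 2 or more libraries.

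Glycolysis takes glucose through a chain of enzymes to pyruvate. Hexokinase traps the sugar in the cell, phosphofructokinase is a main control point, and pyruvate kinase ends the chain. Lactate dehydrogenase interconverts pyruvate and lactate, and monocarboxylate carriers of the SLC16 group move lactate across the membrane. In mammals most steps have isozymes that differ between tissues, with forms typical of muscle, liver or nervous tissue. Fish often keep duplicate copies of such genes, written with a final a or b. Photoreceptors of the mammalian retina are known for turning much of their glucose into lactate even when oxygen is present.

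Poly-A RNA of the pineal gland, of whole eyes and of mixed tissue was sequenced. Every fish was an adult, 0.5 to 1.5 years old, of the Tg(aanat2:EGFP) line, in which the regulatory region of aanat2 drives a green fluorescent protein in the pineal gland. Lights were on for 12 h and off for 12 h each day, and tissue was taken at mid-night (ZT18, 18 h after lights on) and at mid-day (ZT6). A pineal pool was made from 18 glands and an eye pool from 6 eyes. The mixed tissue was RNA in equal parts of muscle, ovary, kidney, gill, liver, intestine, heart and brain, with 4 to 8 pieces of each organ. There was 1 library for each tissue and time, 6 in all and the glands were dissected by their fluorescence. In such bulk RNA, fewer cells of a type and less RNA per cell cannot be told apart.

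The libraries held 7949224 to 15950819 reads behind their FPKM values (a count per length of gene and per size of library), the fewest in the pineal library of the night. A list of 13 matched pineal genes, aanat2 and ASMT among them, summed to 10261 FPKM at night and 6815 by day in the pineal gland. The same list summed to 629 FPKM at night and 488 by day in the eye, and to 23.1 at night and 24.1 by day in mixed tissue. Lens genes summed to 2118 FPKM at night and 4538 by day in the eye, and to 14.8 at night and 19.0 by day in the pineal gland.

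Summed over all 37 genes, the pathway had much the same level in the 3 tissues by day and differed most by which copies made up the sum. The sum was 2530 FPKM at night and 4118 by day in the pineal gland, 3862 at night and 3911 by day in the eye, and 3189 at night and 3625 by day in mixed tissue. By this sum the pineal library of the night was the lowest of the 6, and the pineal library of the day was the highest. The sum was 0.67% of all FPKM in the pineal library of the night, the lowest share, and 1.08% in the eye library of the night, the highest.

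**Figure D1:**
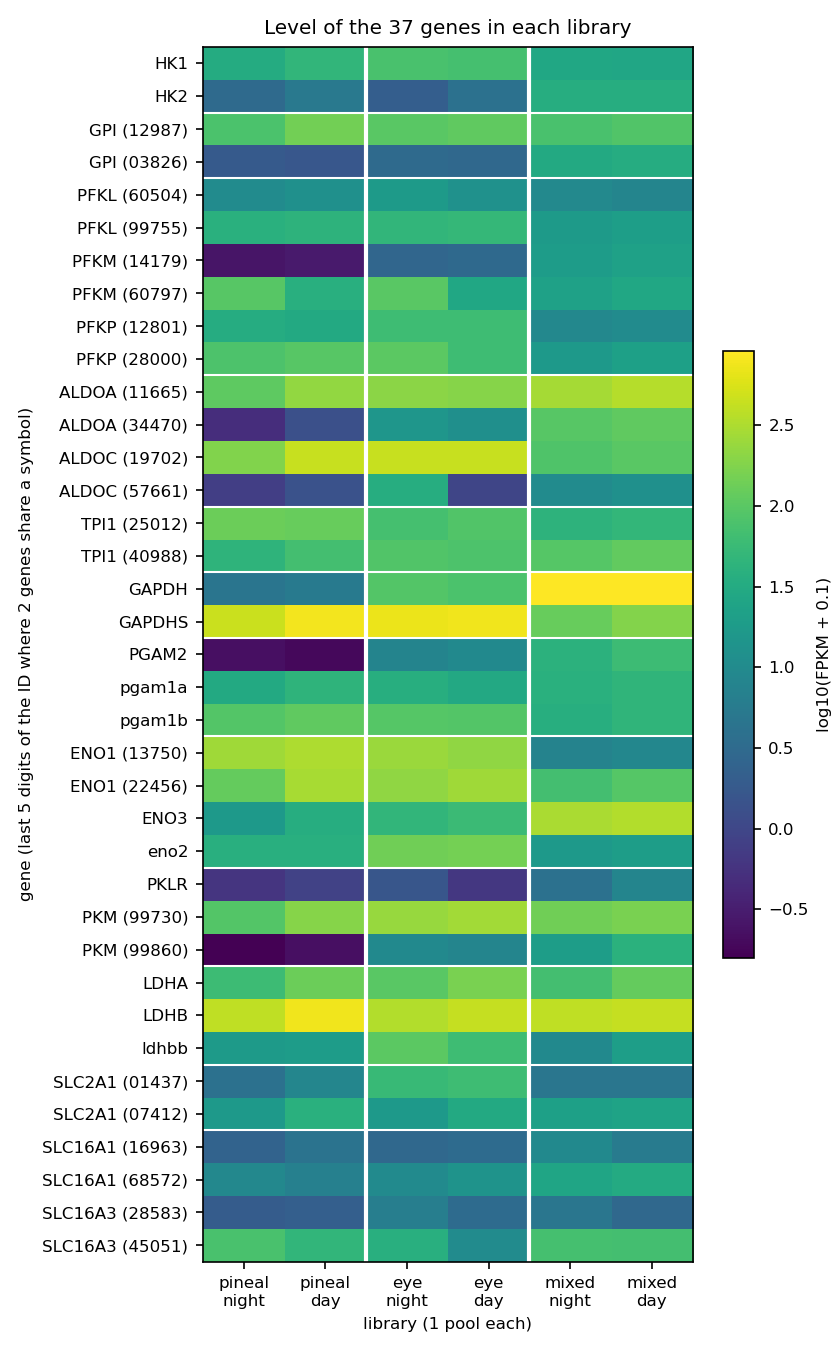
Level of each of the 37 genes (rows, by family in the order of the pathway, carriers last) in the 6 libraries (columns, 1 pool each), as log10(FPKM + 0.1). GAPDH is brightest in mixed tissue, at 911 FPKM at night and 913 by day, while GAPDHS, ENO1 (ENSDARG00000013750) and ALDOC (ENSDARG00000019702) are brighter in the pineal gland and eye than in mixed tissue.

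The copy with the highest level in its family often differed between tissues. FPKM is scaled to gene length, so copies can be set side by side within a library. In 6 of the 12 families both pineal libraries shared a leading copy that was not that of the mixed libraries. In 6 families both eye libraries did so, and in the enolases the eye was led by ENO1 (ENSDARG00000013750) at night and ENO1 (ENSDARG00000022456) by day, against ENO3 in mixed tissue. In 4 of the families, the hexokinases, the aldolases, the glyceraldehyde phosphate dehydrogenases and the phosphoglycerate mutases, the pineal gland and the eye shared the same copy, another than that of mixed tissue. Only the glucose phosphate isomerases, the pyruvate kinases and the lactate dehydrogenases had the same leading copy in all 6 libraries. Shares have no test, since they are a description of each library.

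**Figure D2:**
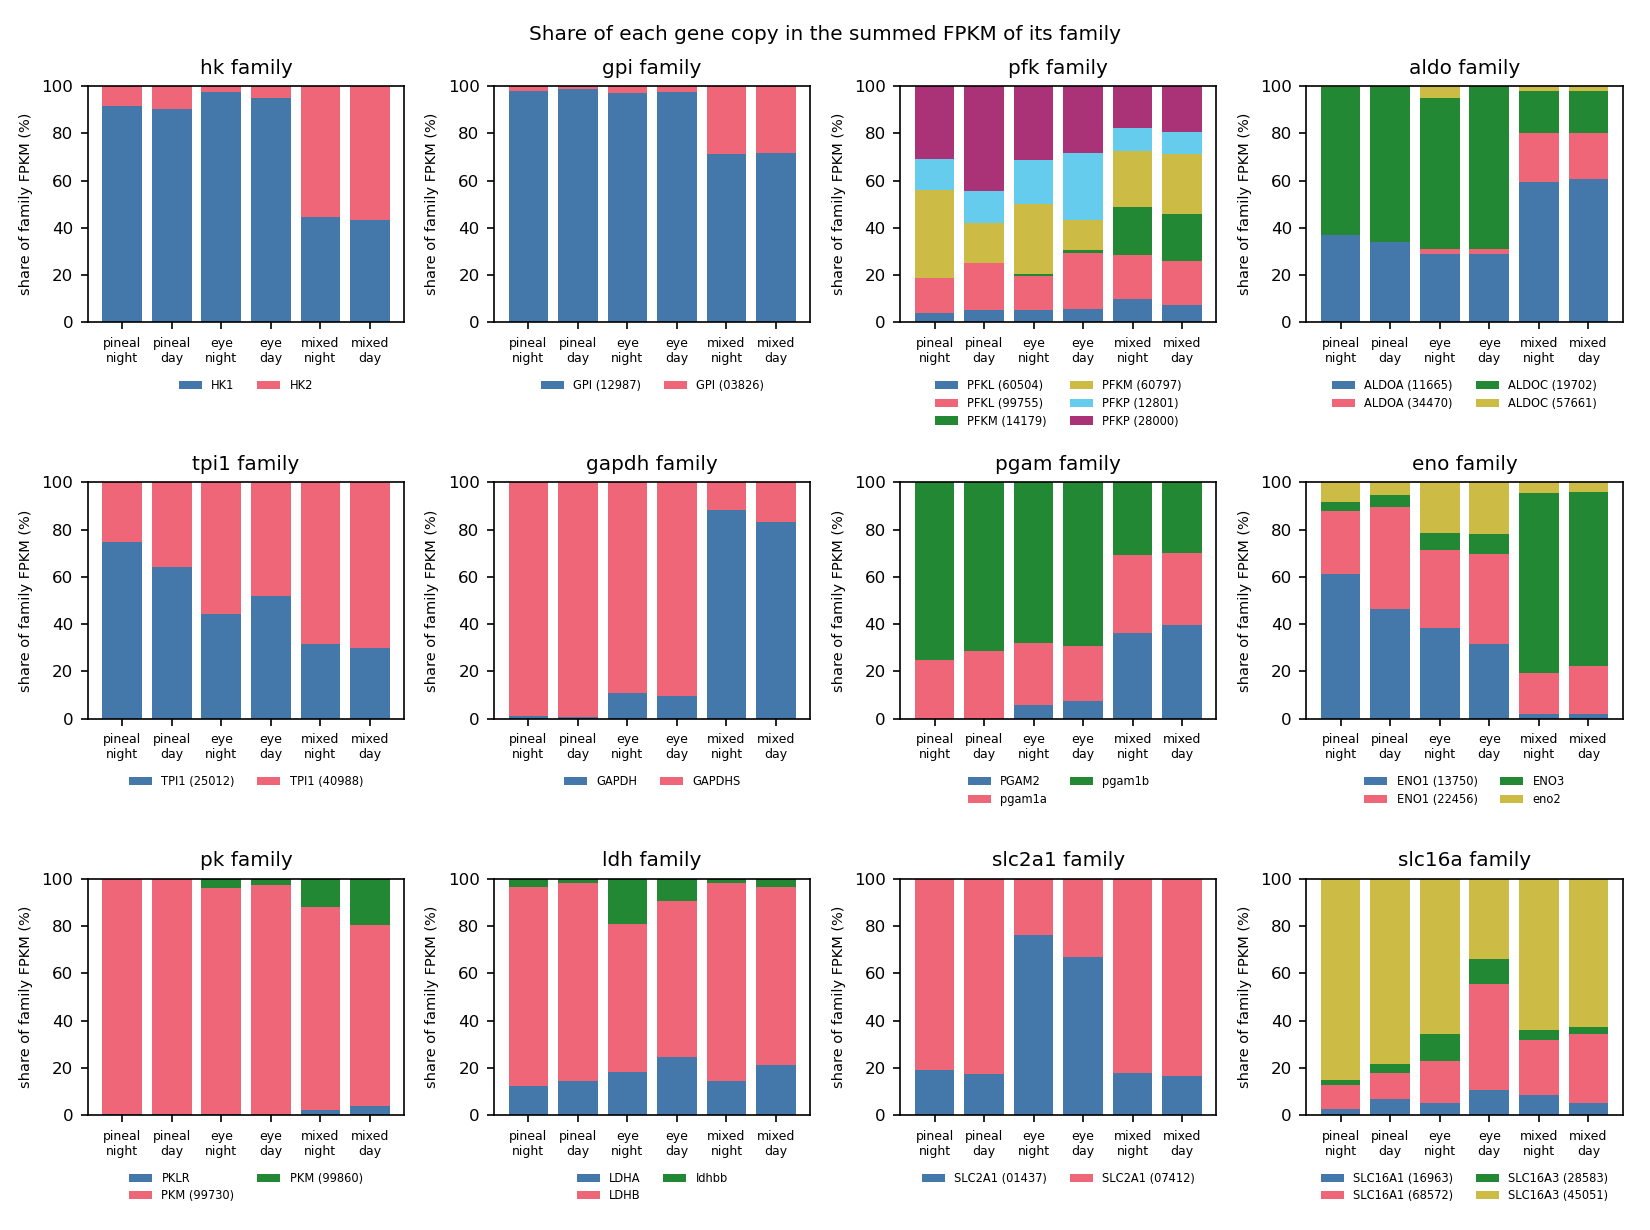
Share of each gene copy in the summed FPKM of its family (y axis, percent), 1 bar for each library with pineal first, then eye and mixed tissue, night before day within each. Digits in the legends are the last 5 of the gene ID. GAPDHS makes up 99.2% of its family in the pineal gland, 89.8% in the eye and 14.2% in mixed tissue (means of 2 libraries), and the 2 libraries of a tissue look alike in most families.

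Tissues were compared with limma on log2(FPKM + 1), with a call where the p adjusted by Benjamini-Hochberg was under 0.05 and the change at least 2-fold. Log2 values below are differences on that scale, on which folds of genes close to 0 come out too small. Each comes with its standard error (SE). Against mixed tissue, 9 of the 37 genes rose in the pineal gland and 11 fell, beside 16.4% of all 21325 tested genes that rose and 30.1% that fell. Their median log2 value was -0.02, against -0.28 over all genes. In the eye 12 rose and 12 fell, beside 20.7% and 28.5% of all genes, with a median of 0.23 against -0.19. These comparisons share the mixed libraries, so they are not independent. Between the pineal gland and the eye, 1 gene rose in the pineal gland and 9 fell, beside 9.25% and 14.1% of all genes, with a median of -0.49 against -0.04.

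**Figure D3:**
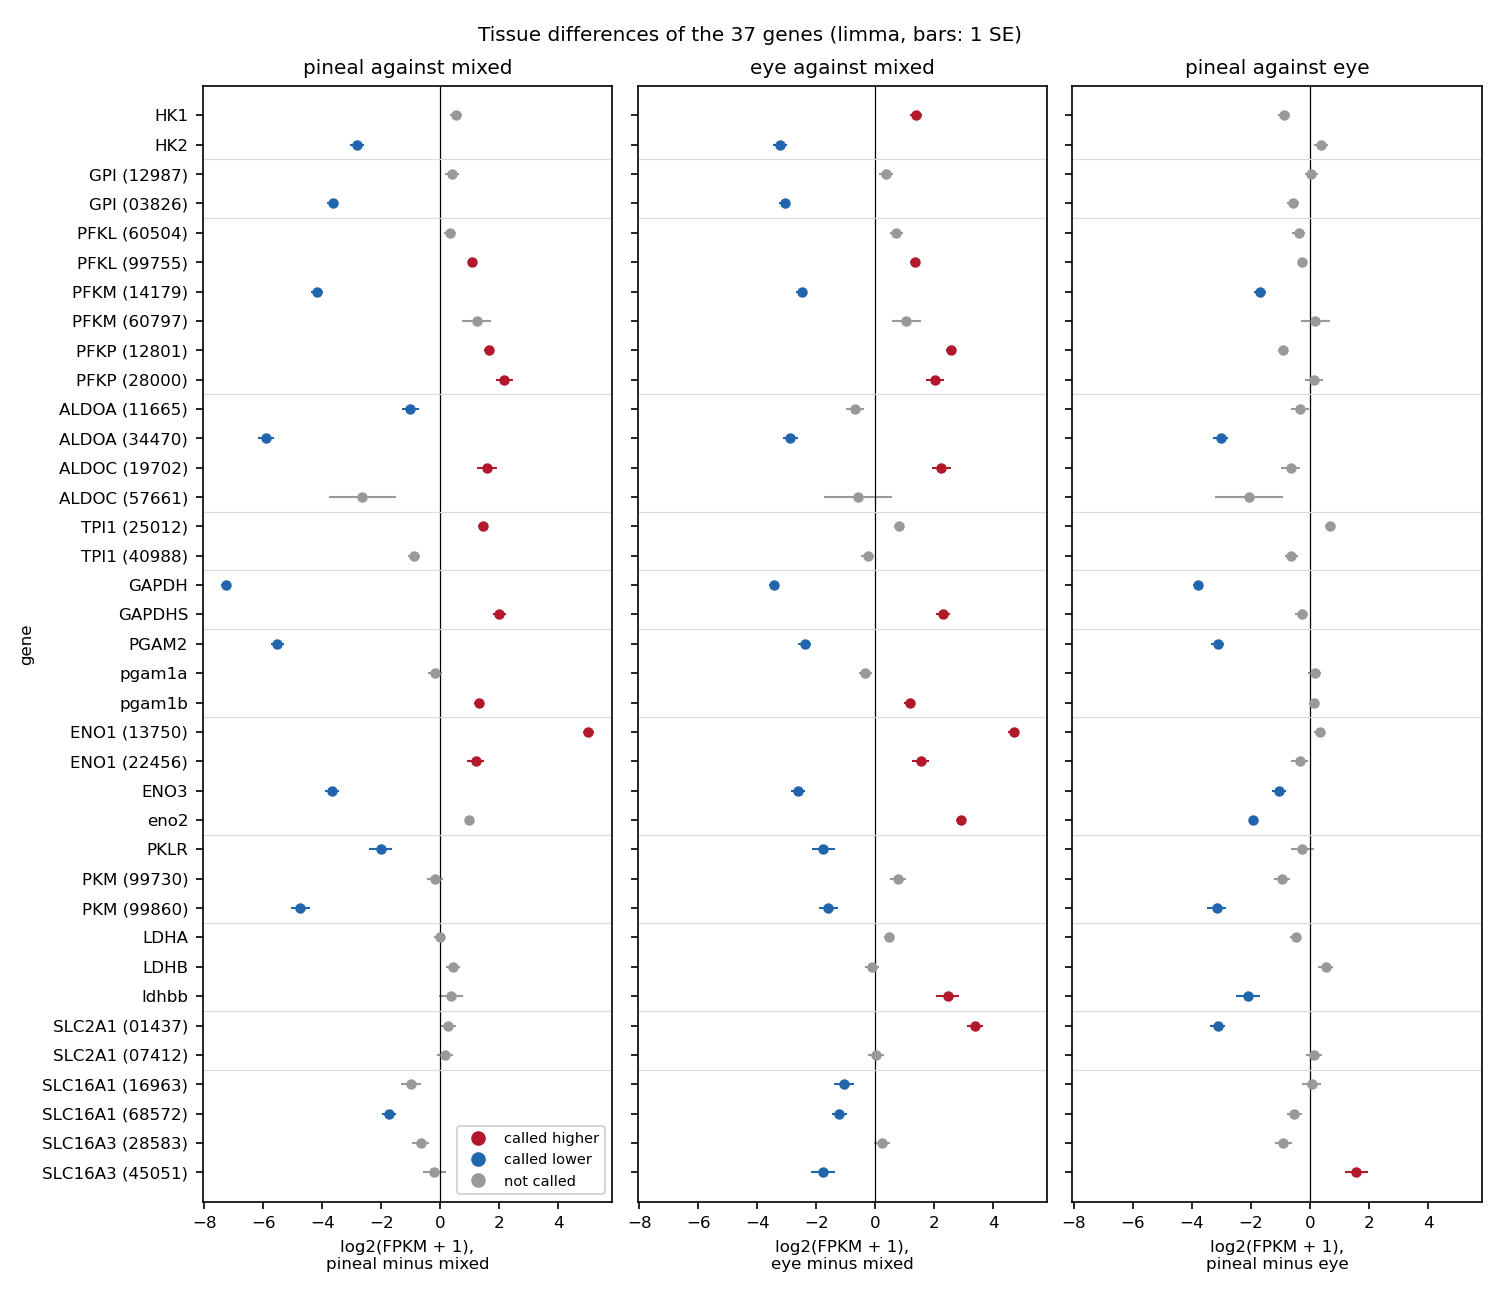
Difference of each gene between tissues (x axis, log2(FPKM + 1), first tissue minus the other; bars, 1 SE from limma; same scale in all panels). Red points were called higher, blue points lower and grey points neither. ENO1 (ENSDARG00000013750) lies farthest right in both panels against mixed tissue, at 5.02 for the pineal gland and 4.69 for the eye, and GAPDH lies farthest left in all 3 panels.

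SLC2A1 (GLUT1) was the only glucose carrier among the members, and its copies differed in tissue use. Another glucose carrier, slc2a3a, is given further on. SLC2A1 (ENSDARG00000001437) was at 3.86 FPKM at night and 8.24 by day in the pineal gland, 54.1 at night and 61.7 by day in the eye, and 4.62 at both times in mixed tissue. Only the eye libraries were high. The eye exceeded mixed tissue by 3.39 (SE 0.27, limma adjusted p 0.000304), and the pineal gland was below the eye by -3.13 (SE 0.27, adjusted p 0.00118). The other copy, ENSDARG00000007412, ranged from 16.4 to 38.6 FPKM over the 6 libraries and was called in none of the comparisons. It made up 81.7% of the pair in the pineal gland, 28.4% in the eye and 82.9% in mixed tissue.

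The hexokinase of the pineal gland and eye was HK1, in mammals the form typical of brain, with little HK2, in mammals the form of muscle and fat. HK2 (ENSDARG00000101482) was at 3.09 FPKM at night and 5.09 by day in the pineal gland, 1.99 at night and 3.87 by day in the eye, and 34.7 at both times in mixed tissue. It fell against mixed tissue in the pineal gland (-2.84, SE 0.24, adjusted p 0.000377) and in the eye (-3.23, SE 0.24, adjusted p 0.000253). HK1 (ENSDARG00000039452) was at 33.0 FPKM at night and 47.4 by day in the pineal gland, 76.1 at night and 70.4 by day in the eye, and 27.8 at night and 26.5 by day in mixed tissue. HK1 rose in the eye against mixed tissue by 1.40 (SE 0.21, adjusted p 0.00243), and the call was lost without the mixed library of the day (1.26, adjusted p 0.0531). In the pineal gland its value of 0.53 (adjusted p 0.0718) was not called. HK1 made up 90.9% of the pair in the pineal gland, 96.1% in the eye and 43.9% in mixed tissue.

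Glucose phosphate isomerase came almost wholly from a single copy in the pineal gland and eye. GPI (ENSDARG00000012987) ranged from 76.3 to 147 FPKM over the 6 libraries and was not called in any comparison. GPI (ENSDARG00000103826) was at 1.71 FPKM at night and 1.58 by day in the pineal gland, 3.04 at night and 2.88 by day in the eye, and 30.6 at night and 33.9 by day in mixed tissue. The mixed libraries were the high ones, and the copy fell by -3.65 in the pineal gland (SE 0.19, adjusted p 8.96e-05) and -3.07 in the eye (SE 0.19, adjusted p 0.00015).

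Phosphofructokinase was the family with the most copies, 6, and its sum was higher in each pineal and eye library than in either mixed library. The sum was 261 FPKM at night and 219 by day in the pineal gland, 332 at night and 217 by day in the eye, and 93.4 at night and 110 by day in mixed tissue. Both copies of PFKP, in mammals the platelet form, rose. PFKP (ENSDARG00000028000) was at 81.0 FPKM at night and 97.0 by day in the pineal gland, 104 at night and 61.9 by day in the eye, and 16.6 at night and 21.4 by day in mixed tissue. The lowest of the pineal and eye libraries was well above the higher mixed library. It rose against mixed tissue in the pineal gland by 2.17 (SE 0.30, adjusted p 0.00192) and in the eye by 2.03 (SE 0.30, adjusted p 0.0023). Without the mixed library of the night both calls were lost, at 1.88 (adjusted p 0.0543) and 1.74 (adjusted p 0.0588). PFKP (ENSDARG00000012801) was at 34.1 FPKM at night and 30.1 by day in the pineal gland, 62.0 at night and 61.1 by day in the eye, and 9.04 at night and 10.1 by day in mixed tissue. It rose by 1.65 in the pineal gland (SE 0.16, adjusted p 0.000644) and 2.57 in the eye (SE 0.16, adjusted p 0.000156).

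PFKL, in mammals the liver form, and PFKM, the muscle form, each had copies that behaved differently. PFKL (ENSDARG00000099755) was at 39.1 FPKM at night and 43.3 by day in the pineal gland, 47.8 at night and 51.1 by day in the eye, and 17.7 at night and 20.2 by day in mixed tissue. It rose by 1.08 in the pineal gland (SE 0.15, adjusted p 0.0019) and 1.34 in the eye (SE 0.15, adjusted p 0.00087), while the other PFKL copy (ENSDARG00000060504), at 8.13 to 17.5 FPKM, was not called. PFKM (ENSDARG00000014179) was at 0.16 FPKM at night and 0.20 by day in the pineal gland, 2.62 at night and 2.98 by day in the eye, and 18.8 at night and 22.1 by day in mixed tissue. The pineal values rest on 4 reads at night and 7 by day. It fell against mixed tissue by -4.19 in the pineal gland (SE 0.20, adjusted p 7.09e-05) and -2.49 in the eye (SE 0.20, adjusted p 0.000323), and was lower in the pineal gland than in the eye by -1.69 (SE 0.20, adjusted p 0.00301). With the smaller pseudocount of 0.1 FPKM the first of these values was -6.22 and the last -3.40. The remaining copy, PFKM (ENSDARG00000060797), was not called between tissues and differed by time, as given further on.

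Aldolase C led the aldolases of the pineal gland and eye, and aldolase A those of mixed tissue. ALDOC (ENSDARG00000019702), in mammals the form of brain, was at 179 FPKM at night and 436 by day in the pineal gland, 440 at night and 442 by day in the eye, and 84.7 at night and 101 by day in mixed tissue. All pineal and eye libraries were above both mixed libraries. It rose by 1.59 in the pineal gland (SE 0.33, adjusted p 0.00864) and 2.24 in the eye (SE 0.33, adjusted p 0.00233). These calls were lost when either mixed library was left out. The pineal value was then 1.39 (adjusted p 0.142) without the day library and 1.78 (adjusted p 0.0982) without the night library, and the eye value 2.05 (adjusted p 0.0666) and 2.44 (adjusted p 0.0528). Without the pineal library of the day the pineal value was 1.01 and still called (adjusted p 0.0171).

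The copies of ALDOA, in mammals the form of muscle, were highest in mixed tissue. ALDOA (ENSDARG00000034470) was at 0.39 FPKM at night and 1.19 by day in the pineal gland, 14.9 at night and 11.8 by day in the eye, and 97.7 at night and 110 by day in mixed tissue. The tissues did not overlap, with the pineal gland lowest and mixed tissue highest. The value was -5.90 for the pineal gland against mixed tissue (SE 0.26, adjusted p 5.88e-05), -2.87 for the eye (SE 0.26, adjusted p 0.000489) and -3.03 between the pineal gland and the eye (SE 0.26, adjusted p 0.00127). By reads, 5 at night and 21 by day in the pineal gland, the copy was 121-fold below mixed tissue (95% exact counting interval 82.5 to 185).

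ALDOA (ENSDARG00000011665) kept a high level everywhere. It was at 105 FPKM at night and 226 by day in the pineal gland, 200 at night and 187 by day in the eye, and 282 at night and 344 by day in mixed tissue. The pineal fall of -1.01 (SE 0.30, adjusted p 0.0319) was at the edge of the call. It was lost without the pineal library of the night (-0.51, adjusted p 0.128), without the mixed library of the day (-1.12, adjusted p 0.181) or of the night (-0.90, adjusted p 0.262), and also with no filter, with no time term, with median-ratio scaling and with voom. In the eye the value was -0.68 (adjusted p 0.0969). ALDOC (ENSDARG00000057661) was not called, with 0.69 FPKM at night and 1.28 by day in the pineal gland, 34.5 at night and 0.88 by day in the eye, and 10.3 at night and 12.3 by day in mixed tissue.

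Triose phosphate isomerase, which interconverts the products of aldolase, was led by different copies in mixed tissue and the pineal gland. TPI1 (ENSDARG00000025012) was at 129 FPKM at night and 122 by day in the pineal gland, 70.4 at night and 88.3 by day in the eye, and 42.2 at night and 48.2 by day in mixed tissue. It rose in the pineal gland against mixed tissue by 1.46 (SE 0.17, adjusted p 0.00109). The eye value of 0.79 (SE 0.17, adjusted p 0.00901) and the pineal value against the eye of 0.67 (SE 0.17, adjusted p 0.0331) passed the p but not the 2-fold limit. The other copy, ENSDARG00000040988, was at 43.8 to 112 FPKM and was highest in mixed tissue, where it made up 69.3% of the pair, against 30.5% in the pineal gland and 51.9% in the eye.

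The sharpest exchange was at glyceraldehyde phosphate dehydrogenase, the enzyme that reduces NAD. GAPDH (ENSDARG00000043457) was at 4.51 FPKM at night and 5.53 by day in the pineal gland, 88.4 at night and 78.1 by day in the eye, and 911 at night and 913 by day in mixed tissue. The 3 tissues did not overlap, and mixed tissue was highest. GAPDH fell by -7.25 in the pineal gland against mixed tissue (SE 0.17, adjusted p 1.29e-05), by -3.44 in the eye (SE 0.17, adjusted p 8.23e-05) and by -3.81 in the pineal gland against the eye (SE 0.17, adjusted p 0.000262). In FPKM the pineal mean was 182-fold below that of mixed tissue.

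GAPDHS (ENSDARG00000039914), named in mammals for its form in sperm, had the opposite pattern. It was at 455 FPKM at night and 787 by day in the pineal gland, 715 at night and 746 by day in the eye, and 120 at night and 183 by day in mixed tissue. The lowest pineal or eye library was above the higher mixed library. GAPDHS rose by 2.00 in the pineal gland (SE 0.23, adjusted p 0.00108) and 2.29 in the eye (SE 0.23, adjusted p 0.000666), and the pineal call was lost without the mixed library of the night (1.92, adjusted p 0.063). Pineal gland and eye differed by -0.29 (SE 0.23, adjusted p 0.405).

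Phosphoglycerate mutase, the step before enolase, had much less of its muscle copy and more pgam1b in the pineal gland and eye. PGAM2 (ENSDARG00000057571), in mammals the muscle form, was at 0.12 FPKM at night and 0.09 by day in the pineal gland, 7.83 at night and 9.67 by day in the eye, and 41.8 at night and 59.5 by day in mixed tissue. The pineal values were 1 read in each library. By reads the pineal level was 490-fold below mixed tissue (95% exact counting interval 135 to 4048), and limma gave -5.52 (SE 0.21, adjusted p 4.22e-05). PGAM2 also fell in the eye, by -2.39 (SE 0.21, adjusted p 0.000463), and was lower in the pineal gland than in the eye by -3.13 (SE 0.21, adjusted p 0.000669). The gene pgam1b (ENSDARG00000014068) was at 90.9 FPKM at night and 110 by day in the pineal gland, 93.3 at night and 88.7 by day in the eye, and 35.6 at night and 45.0 by day in mixed tissue. It rose by 1.3 in the pineal gland (SE 0.17, adjusted p 0.00172) and 1.16 in the eye (SE 0.17, adjusted p 0.00238). The eye call was lost without the eye library of the night (0.98, under the 2-fold limit) and without the mixed library of the night (1.05, adjusted p 0.056). Its sister copy pgam1a (ENSDARG00000005423) stayed between 29.8 and 45.0 FPKM and was not called.

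Enolase, which forms phosphoenolpyruvate, held the largest rise of all 37 genes. ENO1 (ENSDARG00000013750) was at 267 FPKM at night and 320 by day in the pineal gland, 248 at night and 218 by day in the eye, and 7.42 at night and 8.71 by day in mixed tissue. Every pineal and eye library was far above both mixed libraries. It rose by 5.02 in the pineal gland (SE 0.18, adjusted p 3.11e-05) and 4.69 in the eye (SE 0.18, adjusted p 4.09e-05), a 36.4-fold and a 28.9-fold difference in mean FPKM. ENO1 (ENSDARG00000022456) was at 116 FPKM at night and 295 by day in the pineal gland, 213 at night and 262 by day in the eye, and 68.9 at night and 93.6 by day in mixed tissue. It rose by 1.2 in the pineal gland (SE 0.28, adjusted p 0.0142) and 1.55 in the eye (SE 0.28, adjusted p 0.00525), but its calls were fragile. The pineal call was lost without the pineal library of the day (0.71, under the 2-fold limit), without the mixed library of the day (1.01, adjusted p 0.178) or of the night (1.39, adjusted p 0.11), and with no time term (adjusted p 0.0555). The eye call was lost without the mixed library of the day (1.36, adjusted p 0.101) or of the night (1.74, adjusted p 0.0697).

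ENO3, in mammals the muscle form, was highest in mixed tissue, and eno2, the form of neurons, was highest in the eye. ENO3 (ENSDARG00000039007) was at 16.9 FPKM at night and 34.6 by day in the pineal gland, 46.5 at night and 56.9 by day in the eye, and 301 at night and 339 by day in mixed tissue. It fell by -3.67 in the pineal gland (SE 0.24, adjusted p 0.000164) and -2.61 in the eye (SE 0.24, adjusted p 0.000483). Its value of -1.06 between the pineal gland and the eye (SE 0.24, adjusted p 0.0234) lost its call under several settings, among them quantile normalization (-0.99), no time term (adjusted p 0.0587) and a fit of only the 4 libraries compared (adjusted p 0.0733). It was also lost on leaving out the pineal library of the night (-0.68, adjusted p 0.0802), either eye library (-1.20 and -0.91, adjusted p 0.0635 without day and 0.129 without night) and either mixed library (-1.06, adjusted p 0.0825 without day and 0.0831 without night). The neuronal copy eno2 (ENSDARG00000014287) was at 36.8 FPKM at night and 37.8 by day in the pineal gland, 137 at night and 151 by day in the eye, and 17.3 at night and 19.7 by day in mixed tissue. It rose in the eye against mixed tissue by 2.90 (SE 0.15, adjusted p 8.78e-05) and was lower in the pineal gland than in the eye by -1.92 (SE 0.15, adjusted p 0.000927). Its pineal value against mixed tissue was 0.98 (SE 0.15, adjusted p 0.00273), just under the 2-fold limit.

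Pyruvate kinase kept the same leading copy in all libraries, and its minor copies fell. PKM (ENSDARG00000099730) was at 90.3 FPKM at night and 191 by day in the pineal gland, 236 at night and 276 by day in the eye, and 140 at night and 158 by day in mixed tissue. It was not called, and made up 99.5% of the family in the pineal gland, 96.3% in the eye and 81.1% in mixed tissue. PKM (ENSDARG00000099860) was at 0.06 FPKM at night and 0.13 by day in the pineal gland, 9.39 at night and 8.12 by day in the eye, and 19.7 at night and 40.3 by day in mixed tissue. The pineal values were 1 read at night and 3 by day, which put the pineal level 307-fold below mixed tissue (95% exact counting interval 120 to 1126). The log2 value was -4.74 in the pineal gland (SE 0.32, adjusted p 0.000192), -1.59 in the eye (SE 0.32, adjusted p 0.00785) and -3.16 between the pineal gland and the eye (SE 0.32, adjusted p 0.00203). The eye call was lost without the mixed library of the day (-1.06, adjusted p 0.0783).

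PKLR (ENSDARG00000042010), in mammals the form of liver and red cells, was at 0.51 FPKM at night and 0.77 by day in the pineal gland, 1.50 at night and 0.54 by day in the eye, and 3.85 at night and 8.10 by day in mixed tissue. It fell by -2.02 in the pineal gland (SE 0.39, adjusted p 0.00692) and -1.76 in the eye (SE 0.39, adjusted p 0.0108). Both calls were lost without the mixed library of the day, at -1.45 (adjusted p 0.0674) and -1.19 (adjusted p 0.0923). The eye value was -1.12 without the eye library of the day and -2.40 without that of the night, both still called.

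Lactate dehydrogenase was led by LDHB, in mammals the heart form, in every library. LDHB (ENSDARG00000019644) was at 400 FPKM at night and 760 by day in the pineal gland, 339 at night and 426 by day in the eye, and 398 at night and 421 by day in mixed tissue. LDHA (ENSDARG00000101251), in mammals the muscle form that favours lactate, was at 59.7 FPKM at night and 131 by day in the pineal gland, 98.6 at night and 158 by day in the eye, and 68.3 at night and 118 by day in mixed tissue. Neither was called between tissues. LDHA made up 13.5% of the family in the pineal gland, 21.3% in the eye and 17.8% in mixed tissue.

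The duplicate ldhbb (ENSDARG00000071076) set the eye apart. It was at 17.4 FPKM at night and 18.6 by day in the pineal gland, 104 at night and 62.3 by day in the eye, and 9.54 at night and 20.0 by day in mixed tissue. It rose in the eye by 2.46 against mixed tissue (SE 0.40, adjusted p 0.00333) and was lower in the pineal gland than in the eye by -2.10 (SE 0.40, adjusted p 0.0135). The size in the eye moved with each library, at 3.09 without the eye library of the day, 1.82 without that of the night, 3.11 without the mixed library of the day and 1.80 without that of the night, all called. The pineal value against the eye lost its call without the pineal library of the day (-2.08, adjusted p 0.0718) or of the night (-2.12, adjusted p 0.0718) and without the eye library of the night (-1.46, adjusted p 0.0519), and was -2.74 without the eye library of the day.

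The copies of the lactate carriers SLC16A1 and SLC16A3 were called lower where they were called at all, apart from SLC16A3 in the pineal gland against the eye. Other SLC16 genes are outside the members and are not covered by this. SLC16A3 (ENSDARG00000045051), in mammals the lactate exporter MCT4, was at 75.5 FPKM at night and 47.2 by day in the pineal gland, 36.7 at night and 10.2 by day in the eye, and 70.7 at night and 67.5 by day in mixed tissue. The pineal and mixed libraries overlapped and both eye libraries were lower than all of them. It fell in the eye against mixed tissue by -1.77 (SE 0.39, adjusted p 0.0105), a value of -1.08 without the eye library of the day and -2.46 without that of the night, with the call lost without the mixed library of the day (-1.20, adjusted p 0.118). It rose in the pineal gland against the eye by 1.56 (SE 0.39, adjusted p 0.0325). That call was lost with no filter (adjusted p 0.0625), with no time term (adjusted p 0.0831) and with only the 4 libraries compared (adjusted p 0.0627). It was also lost when any library other than the eye library of the night was left out. The value was 1.44 (adjusted p 0.147) without the pineal library of the day, 1.68 (adjusted p 0.113) without that of the night, 0.87 (adjusted p 0.0872) without the eye library of the day and 1.56 (adjusted p 0.0725 and 0.0727) without the mixed library of the day or night. Without the eye library of the night it was 2.25 and called.

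SLC16A1 (ENSDARG00000068572), in mammals the carrier MCT1, was at 8.96 FPKM at night and 6.69 by day in the pineal gland, 9.94 at night and 13.5 by day in the eye, and 25.2 at night and 31.5 by day in mixed tissue. It fell by -1.74 in the pineal gland (SE 0.24, adjusted p 0.00207) and -1.21 in the eye (SE 0.24, adjusted p 0.00721). The pineal call was lost without the mixed library of the day (-1.59, adjusted p 0.053), and the eye call without the eye library of the night (-0.99, under the 2-fold limit) or the mixed library of the day (-1.07, adjusted p 0.105) or night (-1.36, adjusted p 0.0718). SLC16A1 (ENSDARG00000016963), at 2.44 to 9.54 FPKM, fell in the eye by -1.05 (SE 0.33, adjusted p 0.0358). This last call was lost without either eye library (-1.13 without day, -0.97 without night) and without the mixed library of the night (-0.54, adjusted p 0.286), and with no filter, quantile normalization or median-ratio scaling (adjusted p 0.0557 to 0.0603). SLC16A3 (ENSDARG00000028583), at 1.87 to 6.26 FPKM, was not called.

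Several of the genes that fell are in mammals the forms of muscle, and the mixed libraries contain muscle RNA. A list of 13 matched skeletal muscle genes summed to 18.0 FPKM at night and 30.4 by day in the pineal gland, 183 at night and 172 by day in the eye, and 759 at night and 1331 by day in mixed tissue. Of its 11 tested genes, 9 fell in the pineal gland against mixed tissue, 8 fell and 2 rose in the eye, and 8 were lower in the pineal gland than in the eye. In each pineal library 3 of the 13 were listed at 0. Of all genes, 30.1% fell in the pineal gland against mixed tissue and 28.5% in the eye, where 20.7% rose. Lower in the pineal gland than in the eye were 14.1%. Of 9 tested heart muscle genes, 8 fell in the pineal gland, and 8 fell and 1 rose in the eye. The 11 liver genes all fell in both tissues, and the 10 tested ovary genes all fell in both. The part of these organs in the falls of GAPDH, PGAM2, ENO3, ALDOA (ENSDARG00000034470), PFKM (ENSDARG00000014179) and PKM (ENSDARG00000099860) was not tested. Neuron genes, eno2 left out, rose in the eye against mixed tissue in 7 of 13 cases, beside 20.7% of all genes. Their part in the rise of eno2 was not tested.

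Night against day over all 3 tissues, limma called none of the 37 genes, and none of all 21325 (0.0%). Limma-voom on whole reads recovered from the FPKM steps also called none of the 37. At an unadjusted p under 0.05 were 5 of the 37 genes, 1 above 0 and 4 below 0, and 1506 of all genes. The log2 value was below 0 for 30 of the 37, a count not made over all genes, with a median of -0.15 against 0.01 over all genes. LDHA had the smallest adjusted p, 0.614, at -0.86 (SE 0.14), and was lower at night in all 3 tissues.

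Within a tissue, night and day are 1 library each, so the following has no test and no replicate check. Genes are counted where the higher library has at least 5 FPKM and the difference is at least 2-fold, and the 95% exact intervals (Clopper-Pearson, from recovered reads) cover counting error only. In the pineal gland most of the pathway was lower at night. Of 28 genes at 5 FPKM or more, 8 were lower at night and 1 was higher, beside 3.87% and 3.05% of all genes at that level. With median-ratio scaling of the libraries, 7 were lower and 1 was higher. The ratio of night to day was below 1 for 23 of the 28, with the interval wholly below 1 for 20 and wholly above 1 for 4. Directions and intervals were not counted over all genes in any tissue. Counts of them, here and below, therefore have no share of all genes beside them. The median ratio was 0.68, against 0.97 over all genes at that level.

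The genes lower at night in the pineal gland ran from glucose entry to lactate. The ratio of night to day was 0.42 for SLC2A1 (ENSDARG00000007412, interval 0.36 to 0.49) and 0.47 for SLC2A1 (ENSDARG00000001437, 0.34 to 0.64). In the middle of the chain it was 0.41 for ALDOC (ENSDARG00000019702, 0.39 to 0.43) and 0.46 for ALDOA (ENSDARG00000011665, 0.44 to 0.49). At the enolase step it was 0.39 for ENO1 (ENSDARG00000022456, 0.38 to 0.41) and 0.49 for ENO3 (0.43 to 0.56). At the end it was 0.47 for PKM (ENSDARG00000099730, 0.45 to 0.50) and 0.45 for LDHA (0.42 to 0.49). The other ENO1 copy (ENSDARG00000013750) had a ratio of 0.84 (0.80 to 0.87). LDHB, at 0.53 (0.51 to 0.54), GPI (ENSDARG00000012987), at 0.54 (0.51 to 0.57), and GAPDHS, at 0.58 (0.56 to 0.60), were also lower at night, short of 2-fold. Summed over the 37 genes, the pineal level at night was 0.61 of that by day. Genes of erythrocytes were also lower at night in the pineal gland, with a sum of 210 FPKM at night and 367 by day and 9 of 10 below 1, and their part was not tested. Rod genes summed to 11958 FPKM at night and 11125 by day, and cone genes to 5502 at night and 4866 by day.

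A phosphofructokinase was the gene at least 2-fold higher at night in the pineal gland. PFKM (ENSDARG00000060797) was at 96.3 FPKM at night and 36.8 by day in the pineal gland, a ratio of 2.61 (2.43 to 2.81). In the eye it was at 98.6 FPKM at night and 27.7 by day, a ratio of 3.56 (3.33 to 3.80). In mixed tissue it was at 22.2 FPKM at night and 27.6 by day, a ratio of 0.80 (0.74 to 0.88). Its share of the family was 36.9% at night and 16.8% by day in the pineal gland, and 29.7% at night and 12.8% by day in the eye. It was the leading phosphofructokinase of the pineal gland at night, in place of PFKP (ENSDARG00000028000) by day. The ratio of night to day for the family sum was 1.19 in the pineal gland and 1.53 in the eye. For the SLC16A sum it was 1.48 in the pineal gland and 1.85 in the eye, and for the other 10 families it was 0.43 to 0.91 in the pineal gland and 0.77 to 1.07 in the eye.

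In the eye the pathway as a whole differed little with time. Of 32 genes at 5 FPKM or more, 3 were higher at night and 0 lower, beside 7.13% and 6.27% of all genes. The ratio was above 1 for 17 and below 1 for 15, with a median of 1.03 against 1.08 over all genes. Beside PFKM (ENSDARG00000060797), the genes higher at night were ALDOC (ENSDARG00000057661), at a ratio of 39.2 (27.1 to 58.8), and SLC16A3 (ENSDARG00000045051), at 3.59 (3.24 to 3.99). The other SLC16A3 copy (ENSDARG00000028583) had a ratio of 1.96 (1.64 to 2.35) and ldhbb of 1.67 (1.57 to 1.78), while SLC2A1 (ENSDARG00000007412) had 0.56 (0.49 to 0.63) and LDHA 0.62 (0.60 to 0.65).

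The 2 eye pools also differed in markers of other cells. Neuron genes, eno2 left out, summed to 1587 FPKM at night and 1088 by day, with all 13 at 5 FPKM or more above a ratio of 1 and 7 at least 2-fold higher at night. The neuronal member eno2 itself had a ratio of 0.91 (0.88 to 0.95). Astroglia and myelin genes summed to 1781 FPKM at night and 1030 by day. Lens genes were lower at night in 14 of 14 cases. The part of these markers in the difference of ALDOC (ENSDARG00000057661) and SLC16A3 was not tested.

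In mixed tissue 3 of 35 genes were lower at night and 0 higher, beside 3.34% and 1.15% of all genes. They were PKLR, at a ratio of 0.47 (0.38 to 0.59), ldhbb, at 0.48 (0.41 to 0.55), and PKM (ENSDARG00000099860), at 0.49 (0.45 to 0.54). With median-ratio scaling of the libraries, 2 genes were lower at night. The ratio was below 1 for 30 of the 35, with a median of 0.86 against 1.02 over all genes. Skeletal muscle genes at 5 FPKM or more were lower at night in 8 of 8 cases and liver genes in 10 of 11 in these libraries, and their part was not tested.

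**Figure D4:**
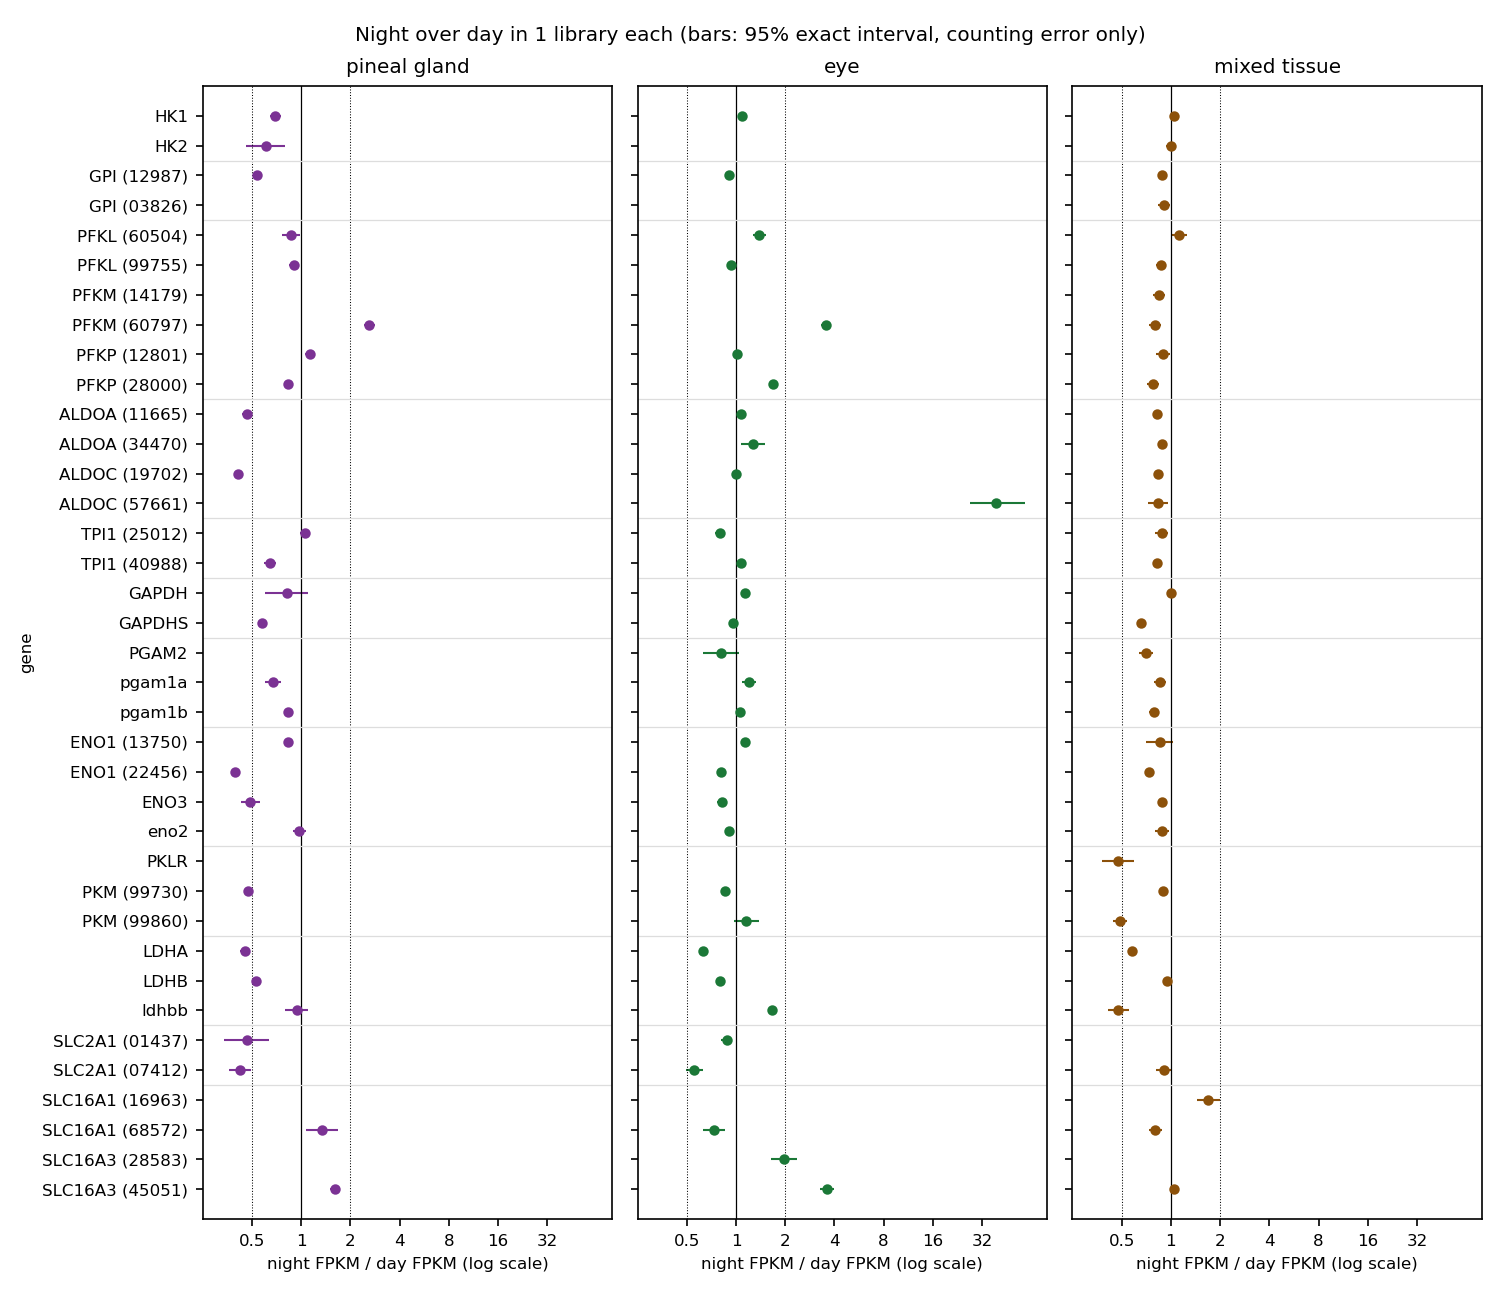
Ratio of night to day FPKM (x axis, log scale, night over day) of each gene at 5 FPKM or more in the higher library, in the pineal gland, eye and mixed tissue, 1 library at each time. Bars are 95% exact intervals for counting error only, and dotted lines mark 2-fold. Most pineal points lie left of 1 (23 of 28), the eye points are spread around 1 with ALDOC (ENSDARG00000057661) at 39.2, and PFKM (ENSDARG00000060797) lies right of 2 in the pineal gland and eye alone.

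Across tissues, 26 genes reached 5 FPKM in all 3. Of these, 11 were lower at night in all 3 tissues, among them LDHA, LDHB, GAPDHS, PKM (ENSDARG00000099730) and ENO1 (ENSDARG00000022456). SLC16A3 (ENSDARG00000045051) alone was higher at night in all 3, at 1.60 (1.50 to 1.71) in the pineal gland, 3.59 in the eye and 1.05 (0.998 to 1.1) in mixed tissue. In 10 genes the pineal ratio was below 1 and the eye ratio above 1, ALDOA (ENSDARG00000011665) and HK1 among them. HK1 had 0.70 (0.65 to 0.75) in the pineal gland and 1.08 (1.04 to 1.13) in the eye. The ratios are of FPKM without rescaling. Their median over all genes at 5 FPKM or more was 0.97 in the pineal gland, 1.08 in the eye and 1.02 in mixed tissue. The eye ratios of HK1 and of ALDOA (ENSDARG00000011665), the latter 1.07, were close to that eye median. These directions were not counted over all genes, so the counts cannot be set against a share of all genes. Whether night and day differ by tissue could not be tested with 1 library each.

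Genes next to glycolysis were taken from lists set with the members. Their counts stand beside 16.4% of all genes that rose and 30.1% that fell in the pineal gland against mixed tissue. For the eye these shares were 20.7% and 28.5%. Whether the counts of these short lists differ from them was not tested. Of 8 genes of the enzymes that make and remove fructose 2,6-bisphosphate, the strongest activator of phosphofructokinase, 3 rose and 1 fell in the pineal gland against mixed tissue, and 3 rose in the eye. PFKFB4 (ENSDARG00000029075) rose in the pineal gland by 3.09 (SE 0.46, adjusted p 0.00258), with 80.2 FPKM at night and 298 by day, a ratio of 0.27. The same gene was at 15.1 FPKM at night and 87.5 by day in the eye, and at 14.5 at night and 20.5 by day in mixed tissue. PFKFB3 (ENSDARG00000001953) rose by 2.41 in the pineal gland (SE 0.40, adjusted p 0.0038) and 2.93 in the eye (SE 0.40, adjusted p 0.00179). Of 8 other isozymes of the chain, 3 rose and 2 fell in the pineal gland, and 3 fell in the eye. PGK2 (ENSDARG00000054191), an annotated phosphoglycerate kinase, was at 85.6 FPKM at night and 122 by day in the pineal gland. It was at 146 at night and 156 by day in the eye, and at 173 at night and 189 by day in mixed tissue.

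The path out of pyruvate into mitochondria had 17 tested genes, of which 3 rose and 4 fell in the pineal gland and 3 rose and 2 fell in the eye. The pyruvate dehydrogenase subunit pdha1b (ENSDARG00000010555) rose by 4.99 in the pineal gland (SE 0.17, adjusted p 3.02e-05) and 5.47 in the eye (SE 0.17, adjusted p 2.59e-05). PDK3 (ENSDARG00000099791), a kinase that turns that enzyme off, rose by 4.52 (SE 0.19, adjusted p 5.17e-05) and 2.89 (SE 0.19, adjusted p 0.000175). Another such kinase, PDK2 (ENSDARG00000020876), was lower in each pineal and eye library than in both mixed libraries. It was at 25.1 FPKM at night and 40.4 by day in the pineal gland. In the eye it was at 21.1 at night and 57.2 by day, and in mixed tissue at 60.3 at night and 116 by day. Of 13 other carriers and partners, 6 rose and 4 fell in the pineal gland, and 3 rose and 5 fell in the eye. BSG (ENSDARG00000019881), the partner that brings SLC16 carriers to the membrane, rose in the pineal gland by 1.49 against mixed tissue (SE 0.19, adjusted p 0.00159) and 1.46 against the eye (SE 0.19, adjusted p 0.00415). The glucose carrier slc2a3a (ENSDARG00000013295) rose by 1.78 in the pineal gland (SE 0.32, adjusted p 0.00532) and 2.36 in the eye (SE 0.32, adjusted p 0.00182). In the pineal gland slc2a3a was at 37.4 FPKM at night and 14.3 by day, while both SLC2A1 copies were lower at night. Of 7 tested genes of gluconeogenesis, the path that makes glucose, 5 fell in the pineal gland and 6 in the eye.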

How the data were processed

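The submitters deposited 1 table of FPKM values for 32105 genes in 6 libraries, 1 for each tissue and time. The submitters' processing notes name STAR 2.3.0e, the danRer10 build, featureCounts of Subread, FastQC and DESeq2. The annotation release, the strand setting and the treatment of reads that match several copies are not given in the sources used here, so reads of near-identical copies may be split or shared. The table's 3 columns of tissue means were not used. Symbols came from a table that named 26269 IDs. It gives 12 symbols to 2 of the matched IDs each, so these IDs could not be assigned to the a or the b copy, and 14 IDs match a listed symbol in full.

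The steps between FPKM values gave back whole reads, within 0.002 read for 27232 of 27233 genes above 0, all 37 members among them. They serve the intervals and an alternative test.

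The test between tissues was limma (3.58.1, with R 4.3.3) on log2(FPKM + 1). All 6 libraries entered 1 model with tissue and time as terms and a prior that follows mean expression (degrees of freedom 2 residual, 3.46 prior), with two-sided tests and Benjamini-Hochberg adjustment over 21325 genes. The 2 libraries of a tissue are a night and a day pool, so there is no spread between like pools. The p-values set each difference against how far the 6 pools depart from additive effects of tissue and time, moderated by the prior. The submitters do not say that the pools were repeated. The scripts were tested on simulated data. The members and lists were chosen with earlier results of these data known. Any member may be named. From other lists, at most the 3 largest called rises and falls with at least 10 FPKM, and the 2 largest differences by time on either side, are named. Some genes of the other lists are not reported here.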

Additional observations from a re-analysis of the deposited data

How the results depend on the processing

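Of 54 called values, 34 kept their call and direction under every alternative run, 20 lost the call under at least 1, and none of 810 alternative values changed direction. The calls were lost most often without the mixed library of the day (14 of 54) or of the night (13 of 54). With symbols matched in full only, 14 genes are left, and the counts were 2 higher and 5 lower for pineal against mixed tissue, 5 higher and 6 lower for eye against mixed tissue and 5 lower for pineal against eye. Leaving out 1 library at a time gave 5 to 9 higher and 8 to 14 lower for pineal against mixed tissue, 8 to 13 higher and 8 to 12 lower for eye against mixed tissue, and 0 to 1 higher and 7 to 11 lower for pineal against eye. The 1 gene higher in the pineal gland than in the eye became 0 with no filter, with no time term and with only the 4 libraries compared, and 2 with no minimum fold. No gene was called for night against day under any alternative. Within tissues, a limit of 1.5-fold gave 15 pineal genes, 8 in the eye and 6 in mixed tissue, and full matches alone gave 2 in the pineal gland and 1 in the eye. These counts join genes higher and lower at night. No share of all genes was counted at 1.5-fold, so they cannot be set against one. On the log2(FPKM + 1) scale, an alternative chosen after seeing the data, the 3 genes of mixed tissue became 0. The cause was not tested, except that full matches leave fewer genes.

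Quantile normalization moved the median of all genes from -0.28 to 0.03 for pineal against mixed tissue, from -0.19 to 0.01 for eye against mixed tissue and from -0.04 to 0.08 for pineal against eye. A pseudocount of 0.1 FPKM enlarged the falls of genes near 0 in the pineal gland, to -7.93 for PGAM2, -7.23 for PKM (ENSDARG00000099860) and -7.02 for ALDOA (ENSDARG00000034470). No paired analysis was possible because each tissue and time has 1 library, and time is already a term. With 1 pool for each tissue and time, the difference between pools of the same kind is unknown.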

Other observations

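Other fuel genes, from lists set with the members, were compared between tissues in the same way. Of all genes, 16.4% rose and 30.1% fell in the pineal gland against mixed tissue. In the eye 20.7% rose and 28.5% fell, and 14.1% were lower in the pineal gland than in the eye. The lists are short, and whether their counts differ from these shares was not tested. Of 16 tested glycogen genes, 3 rose and 9 fell in the pineal gland against mixed tissue, and 2 rose and 7 fell in the eye. Copies changed places here too. GYG1 (ENSDARG00000059391), the primer of glycogen synthesis, rose by 3.25 in the pineal gland (SE 0.15, limma adjusted p 6.88e-05) and 4.35 in the eye (SE 0.15, adjusted p 3.27e-05). The copy ENSDARG00000011934 fell by -3.20 in the pineal gland (SE 0.15, adjusted p 6.43e-05) and -2.73 in the eye (SE 0.15, adjusted p 9.94e-05). Of 8 pentose phosphate genes, TKT (ENSDARG00000029689), a transketolase, was the only gene that rose in both the pineal gland, by 2.43 (SE 0.33, adjusted p 0.00189), and the eye, by 6.93 (SE 0.33, adjusted p 7.42e-05), against mixed tissue. It was lower in the pineal gland than in the eye by -4.50 (SE 0.33, adjusted p 0.000818).

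Of 11 tested genes of the glycerol phosphate and malate shuttles, which carry the reducing power of glycolysis into mitochondria, 1 rose and 4 fell in the pineal gland against mixed tissue, and 1 rose and 1 fell in the eye. Of 6 creatine kinases, 1 rose and 4 fell in the pineal gland, 2 rose and 3 fell in the eye, and 5 were lower in the pineal gland than in the eye. Of 20 tested genes of the hypoxia response, 5 rose and 4 fell in the pineal gland, and 4 rose and 3 fell in the eye. Within the eye, NDRG1 (ENSDARG00000010420), a gene of that list, was at 42.3 FPKM at night and 621 by day, while in the pineal gland the same gene was at 162 FPKM at night and 101 by day, with 1 library each and no test.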
